A study of Homo sapiens with 6 samples.

Results

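Cells make oxidants as they respire and as they handle iron and drugs, and a shared set of enzymes removes them. The antioxidant, NRF2 and selenoprotein genes described here are a list of 39 genes drawn from that set, of 47032 gene symbols in the deposited tables. They comprise the regulators of the NRF2 pathway, NRF2 target genes for detoxification, haem, iron, glutathione, thioredoxin and NADPH metabolism, efflux transporters, glutathione peroxidases, peroxiredoxins, superoxide dismutases, catalase and selenoproteins. All 39 were found, 38 by name and SEPW1 by its Ensembl identifier. Of these, 35 passed the filter for testing, a mean over the libraries of at least 1 FPKM (fragments per unit of transcript length and of sequencing depth) after scaling between libraries. The 4 that did not pass were AKR1B10, ABCC2, ABCC3 and GPX2.

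The series profiled RNA from prostate cancer cell lines that do or do not need androgen to grow, termed castration sensitive and castration resistant. There were 6 lines with 1 sequencing library each, in 3 pairs of a sensitive line and the resistant line named after it. The sensitive lines were LnCaP and LAPC4, kept in RPMI medium with 10% fetal bovine serum (FBS), and VCaP, kept in DMEM with 10% FBS. Their resistant counterparts (LnCaP-abl for LnCaP, VCaP-CR for VCaP and LAPC4-CR for LAPC4) were all kept in RPMI with 10% charcoal-stripped FBS, which is depleted of steroids, and 1X B27, a serum-free supplement whose usual recipe holds antioxidants and selenium. No line received any other treatment. State and medium therefore differed together in every pair and cannot be told apart. No line had a replicate library here, so differences of culture, clone or passage cannot be told apart from state either.

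NRF2, encoded by NFE2L2, is a transcription factor that KEAP1 holds in the cytoplasm and passes to degradation. Oxidants and electrophiles modify KEAP1, and NRF2 then enters the nucleus and binds antioxidant response elements in its target genes, among them the enzymes of glutathione and thioredoxin metabolism. Selenoproteins carry selenocysteine, an amino acid inserted at a UGA codon that would otherwise stop translation, and their yield depends on selenium supply. In prostate tumours GSTP1 is known for loss of expression with methylation of its promoter.

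The codon that defines a selenoprotein is shown for the 7 selenoprotein members, because it is the feature they share whatever their level. Each stretch is the coding strand of the GENCODE release 29 transcript (GRCh38), 12 bases before the codon and up to 12 after it. Capitals mark the selenocysteine codon, the earliest of 10 in SEPP1 and the sole such codon in the others.
GPX1: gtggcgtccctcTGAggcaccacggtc
GPX2: gtggcttcgctcTGAggcacaaccacc
GPX3: gtggccagctacTGAggcctgacgggc
GPX4: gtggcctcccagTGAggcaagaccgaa
TXNRD1: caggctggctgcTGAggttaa
SEPW1: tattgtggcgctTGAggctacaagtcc
SEPP1: cttcaagccagcTGAtacctgtgcata
In 6 of the 7 the codon was followed by GG, the exception being SEPP1. It was codon 49 of 203 in GPX1, 40 of 190 in GPX2, 73 of 226 in GPX3 and 73 of 197 in GPX4. In TXNRD1 it was codon 498 of 499, so that a single codon stood between it and the stop codon. It was codon 13 of 87 in SEPW1 and codon 59 of 381 in SEPP1.

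The core of the antioxidant response element was looked for as TGACNNNGC on either strand of the RefSeq promoter windows (GRCh38.p14), which run from 250 bases before to 50 after a gene's start. The table held windows for 30 of the 39 members. The motif stood in 10 of their 43 windows (23.3%) and in 13.3% of all 35116 windows of that length. These windows belonged to 9 genes: PGD, GCLM, SEPP1, ME1, GSTP1, MGST1, TXNRD1, GPX2 and KEAP1. The related core TGAGNNNGC was in 27.9% of the member windows and 18.3% of all windows, and either of these cores in 41.9% and 29.1%. A match in which the letters are TGACTCAGC also holds TGACTCA, a site of the factor AP-1. A match is a description of the letters and not evidence of binding.

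Among the genes with TGACNNNGC, matches are shown for those whose levels differed most between libraries and for the enzyme subunit GCLM. The core is in capitals. Other members varied more than TXNRD1 without such a match, among them NQO1 and GPX3. Their highest level was 36.3 and 22.0 times the lowest, against 3.70 for TXNRD1. The stretches lie on the gene's strand, and GCTTAGTCA and GCTAAGTCA are the core read on the opposite strand.
ME1: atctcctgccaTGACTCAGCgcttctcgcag
GCLM: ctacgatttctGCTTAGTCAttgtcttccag
TXNRD1: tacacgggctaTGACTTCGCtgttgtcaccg
GPX2: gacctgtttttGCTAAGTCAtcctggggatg
The stretches were chr6:83431169-83431199 on the minus strand for ME1, chr1:93909445-93909475 on the minus strand for GCLM, chr12:104215669-104215699 on the plus strand for TXNRD1 and chr14:64942848-64942878 on the minus strand for GPX2. The centre of the core shown lay 133, 30, 95 and 118 bases before the start in ME1, GCLM, TXNRD1 and GPX2. ME1 had a further match centred 15 bases after the start. TXNRD1 had further matches centred 4 bases before the same start and 98 bases before another start.
The 250 bases before the start of GSTP1 (chr11:67583562-67583811, plus strand) are given because GSTP1 had the widest range of levels of all members. They hold the same core 62 bases before the start and 28 CpG dinucleotides, where the median of all windows, counted over the same stretch, was 11.
GSTP1: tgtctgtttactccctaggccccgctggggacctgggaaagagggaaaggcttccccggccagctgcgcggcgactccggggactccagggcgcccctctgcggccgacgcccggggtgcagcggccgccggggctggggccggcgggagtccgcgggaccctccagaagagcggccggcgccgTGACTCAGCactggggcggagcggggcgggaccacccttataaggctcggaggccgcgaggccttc
GC content over the GSTP1 stretch was 74.8%. DNA methylation was not measured in these samples.

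The libraries held 8661337 to 22433655 counts each. Between 62.8% and 79.5% of the counts fell in protein-coding genes, and this share was higher in the resistant library of every pair, 77.5% against 67.8% for LnCaP-abl, 68.0% against 62.8% for VCaP-CR and 79.5% against 68.3% for LAPC4-CR. KLK3, the androgen-driven gene for prostate-specific antigen, was lower in the resistant line of every pair. LnCaP had 602 scaled FPKM and LnCaP-abl 0.676, VCaP had 319 and VCaP-CR 18.9, and LAPC4 had 104 and LAPC4-CR 2.09. The resistant lines were also kept in steroid-depleted serum, so KLK3 is a check on which library carries which label and not on resistance itself. All 10 prostate luminal markers were found and each reached 1 scaled FPKM in some library. Endothelial, leukocyte and erythroid marker lists summed to at most 2.70 scaled FPKM in any library. The stromal list summed to 1.82 to 5.14 in the sensitive and 2.04 to 50.9 in the resistant libraries, and the high value was lumican (LUM) alone, at 3.84 in VCaP and 49.4 in VCaP-CR, with the other 5 stromal markers under 1 in every library.

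The antioxidant genes covered a wide range of levels. The 5 with the highest mean level were PRDX1 (261 scaled FPKM), GPX4 (202), PRDX5 (150), TXN (145) and PRDX2 (123), 4 of them thiol peroxidases or their electron donor. At the other end, AKR1B10 and ABCC2 did not exceed 0.342 and 0.513 scaled FPKM in any library. Most genes differed more between parental lines than between states. The spread of log2 level between lines was larger than the difference within pairs in 28 of 35 members (80%), against 72.7% of the 11340 protein-coding genes tested. The median spread over members was 0.84 between lines and 0.53 within pairs. The widest spreads between lines were those of GSTP1 (2.89), ME1 (2.84), NQO1 (2.80) and GSR (2.09).

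**Figure D1:**
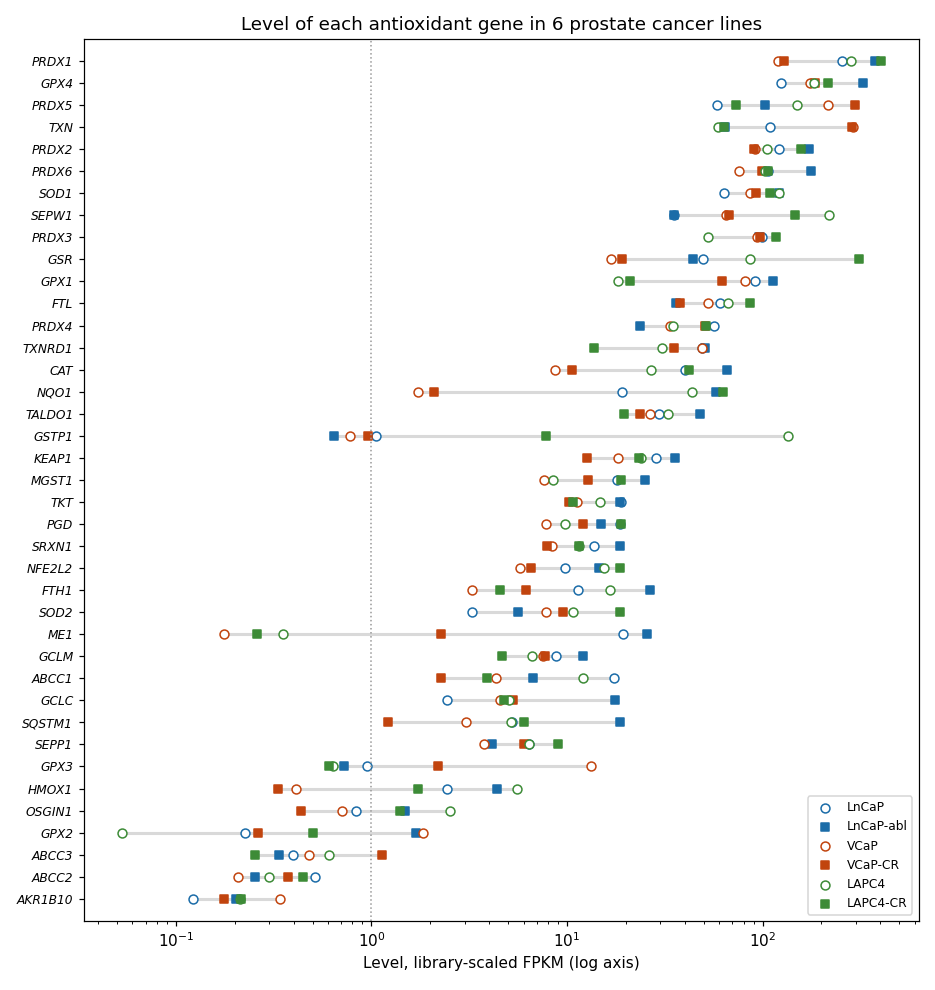
Level of the 39 antioxidant genes in each of the 6 libraries, in library-scaled FPKM on a log axis, ordered by mean level. Open circles are the sensitive lines and filled squares the resistant lines, with a colour per parental line, and the dotted line marks 1 scaled FPKM. PRDX1 and GPX4 lie at the top with their points close together, while GSTP1, ME1 and NQO1 spread widely.

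Resistant lines were compared with sensitive lines in each pair as the difference of log2(scaled FPKM + 1), a scale that understates the difference of low genes. A pair had 1 library per state, so its differences have no replicate check, and the intervals given with folds are 95% intervals that cover counting error only. In the LnCaP pair 5 of 35 members were at least 2-fold higher in the resistant line (GCLC, SQSTM1, NQO1, GPX4 and FTH1), beside 7.02% of the 18004 genes tested and 8.5% of the protein-coding genes. In the same pair 2 members were at least 2-fold lower (ABCC1 and PRDX4), beside 8.68% of all and 3.58% of coding genes. The VCaP pair had 1 member higher (ME1), beside 2.77% and 2.18%, and 1 lower (GPX3), beside 2.63% and 1.85%. The LAPC4 pair had 3 higher (GSR, PRDX3 and MGST1), beside 5.98% and 7.55%, and 6 lower (GSTP1, FTH1, ABCC1, HMOX1, TXNRD1 and PRDX5), beside 8.18% and 3.99%.

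Of the 35 members, 16 passed 2-fold in at least 1 pair, where 28.6% of all and 23.4% of coding genes did so. ABCC1 and FTH1 passed in 2 pairs, ABCC1 lower in both and FTH1 in opposite directions. How many of all genes passed in 2 pairs was not counted, so the small overlap between pairs is not read as a trait of the members. The median change over the 35 members was 0.42 for the LnCaP lines, 0.09 for the VCaP lines and 0.05 for the LAPC4 lines, where protein-coding genes had medians of 0.14, 0.00 and 0.10. With libraries scaled on protein-coding genes alone, the median of all genes shifted by -0.14 in the LnCaP pair and -0.13 in the LAPC4 pair, and the members' medians were 0.25, 0.07 and -0.10. Under that scaling 4 members were 2-fold higher in the LnCaP pair and 1 in the LAPC4 pair.

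**Figure D2:**
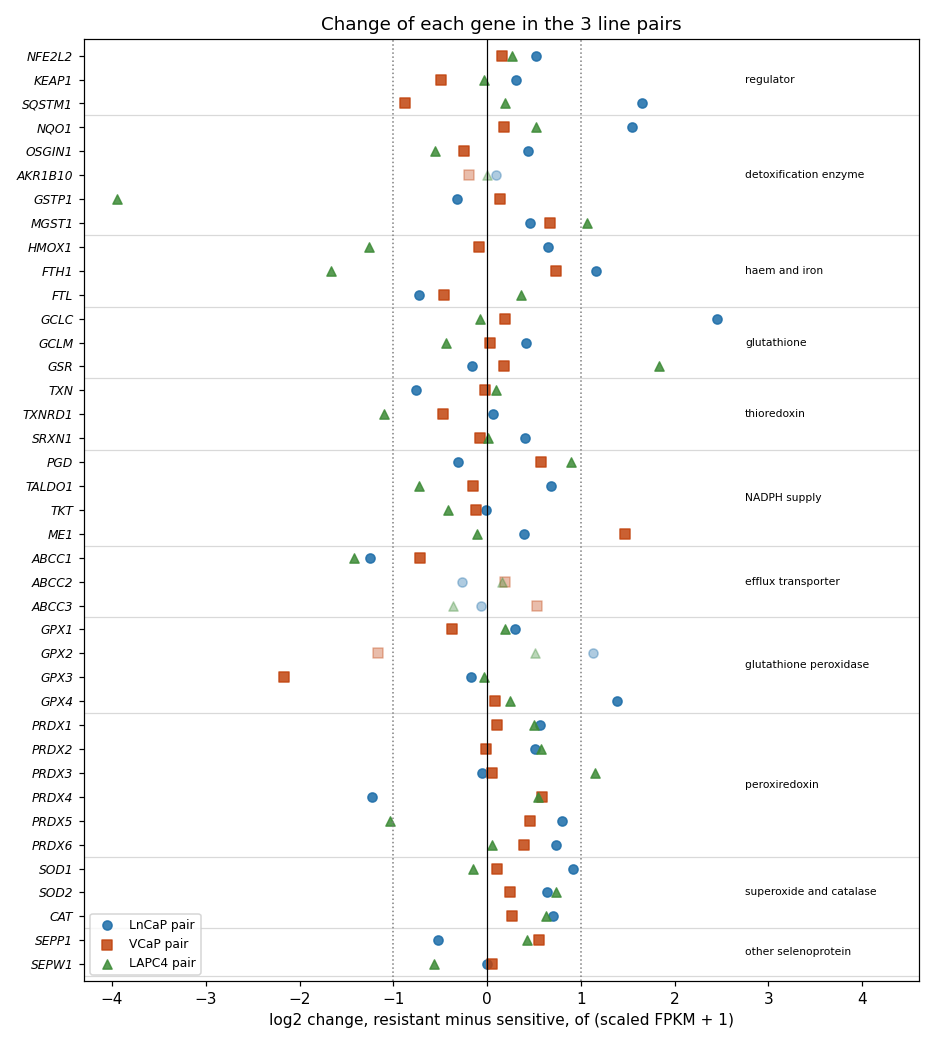
Difference of log2(scaled FPKM + 1), resistant minus sensitive, for each antioxidant gene grouped by role. Circles are the LnCaP pair, squares the VCaP pair and triangles the LAPC4 pair, dotted lines mark a 2-fold difference and faded points are the 4 genes that did not pass the filter. GCLC lies far to the right in the LnCaP pair alone, GSTP1 far to the left in the LAPC4 pair alone, and ABCC1 left of 0 in every pair.

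Over the 3 pairs together, 8 members were higher in every resistant line (NFE2L2, NQO1, MGST1, GPX4, PRDX1, PRDX6, SOD2 and CAT), beside 16.5% of all and 21.7% of coding genes. PRDX6 was at -0.13 in the LAPC4 pair with scaling on protein-coding genes, so that 7 remained under it; without scaling or with TMM factors PRDX2 made 9. The 3 members lower in every resistant line were TKT, ABCC1 and GPX3, beside 17.2% of all and 11% of coding genes, and scaling on protein-coding genes made 5 with TXN and TXNRD1. Some of these directions lay within counting error. Intervals of the fold included 1 for TKT (0.925 to 1.05) and GPX3 (0.426 to 1.37) in the LnCaP pair. This also held for GPX3 in the LAPC4 pair (0.569 to 1.60). Among the higher members it held for NFE2L2, NQO1 and GPX4 in the VCaP pair and PRDX6 in the LAPC4 pair. No member passed an adjusted p of 5% in edgeR's quasi-likelihood test with the parental line as a block (Benjamini-Hochberg, smallest 0.50), nor did any of the 18004 genes (0% in each direction). Unadjusted p-values under 0.05 were reached by 894 genes in the higher direction (4.97%) and 790 in the lower (4.39%), among them NQO1, MGST1 and SOD2 higher and ABCC1 lower. DESeq2 called 98 genes higher (0.544%) and 87 lower (0.483%), with ABCC1 the member among them.

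Levels below are in scaled FPKM, and where a pair is given by 2 levels the sensitive line comes first and its resistant line second. Of the regulators among the members (NFE2L2, KEAP1 and SQSTM1), all but SQSTM1 differed less than 2-fold in every pair. NFE2L2 stood at 9.79 and 14.5 scaled FPKM in the LnCaP lines, 5.76 and 6.57 in the VCaP lines and 15.4 and 18.7 in the LAPC4 lines. It was higher in each resistant line, but the lines overlapped, and the edgeR change was 0.35 ± 0.25 (SE; Benjamini-Hochberg adjusted p = 0.67). KEAP1, the NRF2 inhibitor, stood at 28.5 and 35.7 in the LnCaP lines, 18.2 and 12.7 in the VCaP lines and 23.9 and 23.3 in the LAPC4 lines. It was lower in the resistant line of 2 pairs and higher in 1, with an edgeR change of -0.07 ± 0.27 (SE; Benjamini-Hochberg adjusted p = 0.95) whose sign turned under 3 alternatives. SQSTM1 encodes p62, an autophagy receptor that binds KEAP1. Its level was 5.24 and 18.6 in the LnCaP lines, 3.05 and 1.21 in the VCaP lines and 5.17 and 6.05 in the LAPC4 lines. LnCaP-abl stood above all other libraries for SQSTM1, 3.55-fold over LnCaP (interval 3.17 to 3.98), while VCaP-CR was the lowest, 2.52-fold under VCaP. The entries MGAT4B and C5orf45 overlap SQSTM1 and held up to 581% and 1072% of its count; without strand in the sources, reads of overlapping entries cannot be told apart, which also holds for NFE2L2 with AGPS.

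Among the detoxification enzymes, NQO1, a quinone reductase and a standard readout of NRF2 activity, lies at chr16:68300805-68318208 (hg18). NQO1 stood at 19.1 and 57.5 scaled FPKM in the LnCaP lines, 1.73 and 2.09 in the VCaP lines and 43.4 and 62.7 in the LAPC4 lines. Every resistant line was above its parent, yet the VCaP lines stayed far under both other pairs. LnCaP-abl was 3.01-fold over LnCaP (interval 2.73 to 3.34), VCaP-CR 1.21-fold over VCaP (0.845 to 1.75) and LAPC4-CR 1.45-fold over LAPC4 (1.37 to 1.53). The edgeR change of NQO1 was 0.82 ± 0.33 (SE; Benjamini-Hochberg adjusted p = 0.53), and 0.41 without the LnCaP pair. MGST1, a membrane-bound glutathione transferase, stood at 17.9 and 25.05 in the LnCaP lines, 7.66 and 12.8 in the VCaP lines and 8.48 and 18.8 in the LAPC4 lines. It too was higher in each resistant line, by 1.40-, 1.67- and 2.22-fold, with an edgeR change of 0.79 ± 0.27 (SE; Benjamini-Hochberg adjusted p = 0.50).

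GSTP1, the cytosolic glutathione transferase whose upstream sequence is given above, lies at chr11:67107642-67110707 (hg18). It was at 1.05 and 0.640 scaled FPKM in the LnCaP lines, 0.775 and 0.956 in the VCaP lines and 134 and 7.78 in the LAPC4 lines. These values came from 19, 14, 15, 30, 3465 and 359 counts. Only the 2 LAPC4 libraries were above 2 scaled FPKM, and the highest level was 210-fold over the lowest. Within that pair the resistant line was 17.3-fold lower. GSTP1 was at the 98.3 percentile of tested protein-coding genes in LAPC4 and at the 58.2 percentile in LAPC4-CR. OSGIN1, an NRF2-induced growth inhibitor, stayed between 0.435 and 2.53 scaled FPKM, and AKR1B10, an aldo-keto reductase, was near the floor of these libraries.

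Haem and iron genes did not move together. HMOX1, the inducible haem oxygenase, stood at 2.44 and 4.39 scaled FPKM in the LnCaP lines, 0.414 and 0.332 in the VCaP lines and 5.56 and 1.73 in the LAPC4 lines. LAPC4-CR was 3.20-fold under LAPC4, and LnCaP-abl was 1.80-fold over LnCaP. FTH1, the ferritin heavy chain that oxidises and stores iron, stood at 11.3 and 26.5 in the LnCaP lines, 3.28 and 6.14 in the VCaP lines and 16.6 and 4.56 in the LAPC4 lines. The log2 changes of FTH1 were 1.16, 0.74 and -1.66, so that the LAPC4 pair went the other way from the other two. Its level is uncertain, because 25 pseudogene entries named for FTH1 held 345% to 861% of its own count in a library; summed with them, the changes were 0.71, 1.78 and -1.29. FTL, the light chain, stood at 60.5 and 36.2, 52.6 and 38.0, and 66.7 and 85.8 in the 3 pairs, with log2 changes of -0.72, -0.46 and 0.36.

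Glutathione synthesis starts with glutamate-cysteine ligase, made of the catalytic subunit GCLC and the modifier GCLM. GCLC, at chr6:53470098-53589727 (hg18), stood at 2.43 and 17.7 scaled FPKM in the LnCaP lines, 4.53 and 5.29 in the VCaP lines and 5.08 and 4.75 in the LAPC4 lines. LnCaP-abl was the only library above 6, and its 1702 counts against 193 in LnCaP gave a 7.29-fold difference (interval 6.28 to 8.51), the largest higher fold in the LnCaP pair among the members that passed the filter. GCLM did not follow it in size, at 8.84 and 12.1, 7.53 and 7.72, and 6.65 and 4.64 in the 3 pairs. GSR, glutathione reductase, stood at 49.5 and 44.0 in the LnCaP lines, 16.7 and 19.0 in the VCaP lines and 86.5 and 312 in the LAPC4 lines. LAPC4-CR was far above all other libraries for GSR, with 24142 counts against 3747 in LAPC4 and a 3.60-fold difference (interval 3.48 to 3.73). The catalytic ligase subunit and the reductase were thus each high in 1 resistant line, GCLC in LnCaP-abl and GSR in LAPC4-CR.

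**Figure D3:**
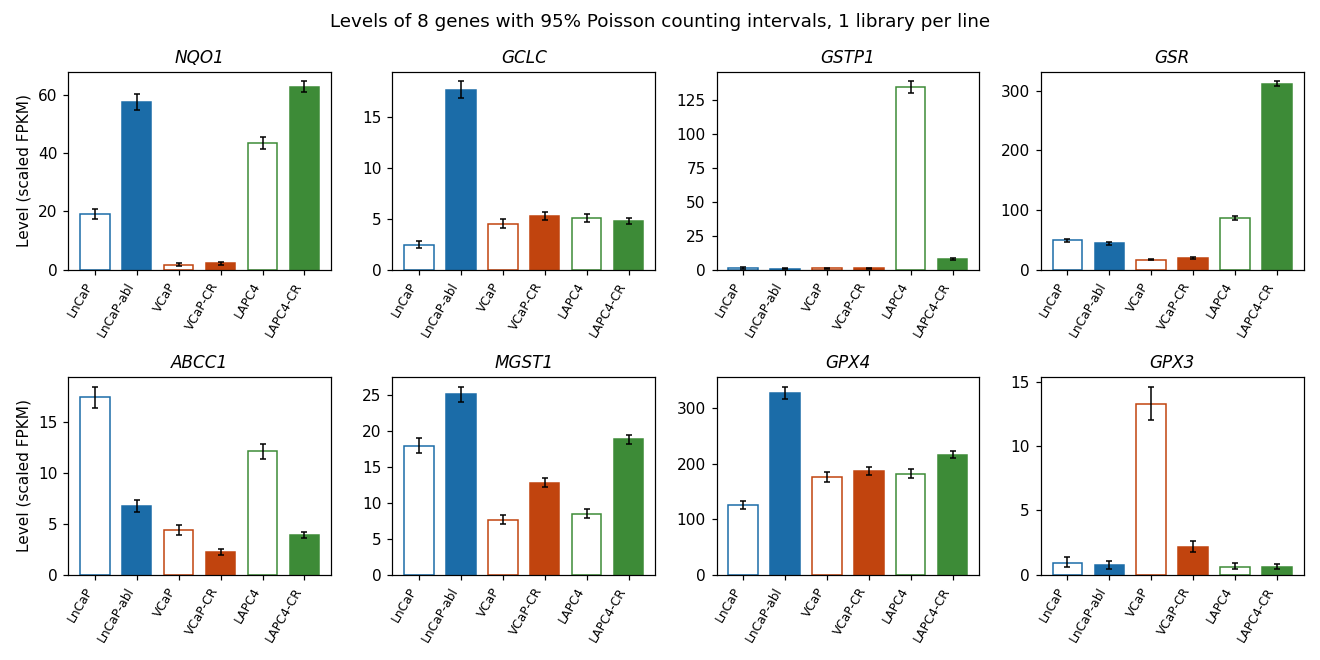
Level of NQO1, GCLC, GSTP1, GSR, ABCC1, MGST1, GPX4 and GPX3 in each library, in scaled FPKM on a linear axis from 0, with open bars for sensitive and filled bars for resistant lines. Error bars are 95% Poisson intervals of the counts of 1 library per line and cover counting error only. GCLC is tall in LnCaP-abl alone, GSR in LAPC4-CR, GSTP1 in LAPC4 and GPX3 in VCaP, and ABCC1 is lower in every resistant line.

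In the thioredoxin branch, TXN is the small protein that reduces peroxiredoxins and TXNRD1 the cytosolic selenoenzyme that reduces TXN. TXN stood at 109 and 64.0 scaled FPKM in the LnCaP lines, 290 and 285 in the VCaP lines and 59.3 and 63.1 in the LAPC4 lines. The VCaP lines held the most TXN in both states, and the log2 change was -0.76 in the LnCaP pair. TXNRD1 stood at 48.7 and 50.9 in the LnCaP lines, 49.0 and 35.2 in the VCaP lines and 30.7 and 13.8 in the LAPC4 lines. LAPC4-CR was the lowest library for TXNRD1, 2.23-fold under LAPC4 (log2 change -1.10). The entry RPL18AP3 overlaps TXNRD1 and held up to 154% of its count. SRXN1, which repairs over-oxidised peroxiredoxins, was at 7.89 to 18.7, with no 2-fold difference in a pair.

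NADPH, the reducing power of both branches, comes from the pentose phosphate pathway and malic enzyme. ME1, the cytosolic malic enzyme, stood at 19.3 and 25.8 scaled FPKM in the LnCaP lines, 0.176 and 2.27 in the VCaP lines and 0.353 and 0.259 in the LAPC4 lines. The counts of ME1 were 614, 990, 6, 125, 16 and 21 in that order. Its level was thus mainly a property of the LnCaP pair, and VCaP-CR was 12.9-fold over VCaP on few counts (interval 5.74 to 35.7). A pseudogene entry inside the span of ME1 took 196 to 530 counts in each library. PGD, TALDO1 and TKT, enzymes of the pentose phosphate pathway, differed less than 2-fold in every pair, with log2 changes from -0.31 to 0.90 for PGD, from -0.72 to 0.68 for TALDO1 and from -0.42 to -0.02 for TKT.

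Efflux was the role in which a member moved the same way in all pairs by the most. ABCC1, which encodes the multidrug resistance protein MRP1 and exports glutathione conjugates, lies at chr16:15950935-16144432 (hg18). It stood at 17.4 and 6.74 scaled FPKM in the LnCaP lines, 4.36 and 2.26 in the VCaP lines and 12.1 and 3.90 in the LAPC4 lines. Each resistant line was under its parent, by 2.58-, 1.93- and 3.11-fold, although VCaP was as low as some resistant lines, so the states overlapped. The mean log2 change was -1.13 ± 0.37 (SD, n = 3 pairs). ABCC1 had an edgeR change of -1.31 ± 0.27 (SE; Benjamini-Hochberg adjusted p = 0.50), and DESeq2 gave an adjusted p of 0.011. ABCC2 and ABCC3 were barely detected, ABCC3 at 0.253 to 1.13.

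Of the glutathione peroxidases, which reduce peroxides with glutathione, GPX1 and GPX4 were abundant and GPX2 and GPX3 were mostly low. GPX4, which reduces lipid peroxides in membranes and guards against ferroptosis, stood at 125 and 328 scaled FPKM in the LnCaP lines, 176 and 186 in the VCaP lines and 182 and 216 in the LAPC4 lines. LnCaP was the lowest library and LnCaP-abl the highest, 2.62-fold apart (interval 2.45 to 2.81), and the other pairs differed by 1.06- and 1.19-fold. GPX1, the cytosolic peroxidase, stood at 91.8 and 113, 81.1 and 62.1, and 18.3 and 21.0 in the 3 pairs, so that both LAPC4 lines were lowest. GPX3, the secreted plasma form, stood at 0.946 and 0.724 in the LnCaP lines, 13.3 and 2.18 in the VCaP lines and 0.639 and 0.604 in the LAPC4 lines. VCaP alone had more than 3 scaled FPKM of GPX3, and VCaP-CR was 6.08-fold lower. In the same pair lumican, counted as a stromal marker, was higher in VCaP-CR, and its part in this result was not tested. GPX2, the gastrointestinal form and an NRF2 target, had only 3, 27, 26, 6, 1 and 17 counts and did not pass the filter.

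Peroxiredoxins are thiol peroxidases, and each of the 6 stood above 20 scaled FPKM in every library. PRDX1, a cytosolic form and NRF2 target, stood at 255 and 378 scaled FPKM in the LnCaP lines, 119 and 128 in the VCaP lines and 283 and 401 in the LAPC4 lines. The VCaP lines were lowest for PRDX1, and PRDX2, also cytosolic, was likewise lowest there, at 91.5 and 90.8 against 106 to 172 in the other lines. PRDX3, the mitochondrial form, stood at 99.7 and 95.7, 93.7 and 97.0, and 52.4 and 118 in the 3 pairs. LAPC4 was the low library for PRDX3, and LAPC4-CR was 2.25-fold over it. PRDX4, the form of the endoplasmic reticulum, stood at 56.5 and 23.5 in the LnCaP lines, 33.5 and 50.7 in the VCaP lines and 34.8 and 51.1 in the LAPC4 lines. LnCaP-abl was lowest for PRDX4, 2.41-fold under LnCaP, while the other resistant lines were above their parents. PRDX5, found in mitochondria and peroxisomes, stood at 58.4 and 102, 217 and 298, and 151 and 72.8. It was 2.07-fold lower in LAPC4-CR and higher in the other resistant lines. PRDX6, which also acts on phospholipids, ranged from 75.5 to 177.

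Superoxide dismutases turn superoxide into hydrogen peroxide, and catalase breaks that down. SOD2, the mitochondrial enzyme, stood at 3.27 and 5.65 scaled FPKM in the LnCaP lines, 7.83 and 9.49 in the VCaP lines and 10.8 and 18.6 in the LAPC4 lines. It was higher in every resistant line, with an edgeR change of 0.62 ± 0.26 (SE; Benjamini-Hochberg adjusted p = 0.53); the overlapping entries WTAP and ACAT2 held up to 178% and 98.9% of its count. CAT, the peroxisomal catalase, stood at 40.1 and 65.9, 8.68 and 10.6, and 26.9 and 42.1 in the 3 pairs, a mean log2 change of 0.53 ± 0.24 (SD, n = 3 pairs). SOD1, the cytosolic enzyme, ranged from 63.8 to 121, with log2 changes of 0.91, 0.10 and -0.15.

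Both remaining selenoproteins showed no 2-fold difference in a pair. SEPP1, the secreted carrier of selenium, stood at 6.36 and 4.12 scaled FPKM in the LnCaP lines, 3.78 and 6.01 in the VCaP lines and 6.40 and 8.97 in the LAPC4 lines. SEPW1, a small selenoprotein of the thioredoxin fold, stood at 35.05 and 35.07 in the LnCaP lines, 65.1 and 67.5 in the VCaP lines and 218 and 147 in the LAPC4 lines. LAPC4 held the most SEPW1 and the LnCaP lines the least, and the log2 change in the LAPC4 pair was -0.57. Over the 7 selenoprotein members, the differences of at least 2-fold were those of GPX4 (higher in LnCaP-abl), GPX3 (lower in VCaP-CR), TXNRD1 (lower in LAPC4-CR) and the sparse GPX2.

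Further genes of the pathways were read from lists of related genes. Of 38 other NRF2 pathway genes tested, 5 stood 2-fold or more above LnCaP in LnCaP-abl and 3 below. The VCaP pair had 2 above and 0 below, and the LAPC4 pair 4 and 4. Their medians were 0.27, -0.06 and -0.01, where all protein-coding genes had 0.14, -0.0008 and 0.10. For this and the other lists, the LnCaP pair had 7.02% of all and 8.5% of coding genes higher, and 8.68% and 3.58% lower. The VCaP pair had 2.77% and 2.18% higher and 2.63% and 1.85% lower. The LAPC4 pair had 5.98% and 7.55% higher and 8.18% and 3.99% lower. IDH1, a cytosolic source of NADPH, was higher in each resistant line, at 48.2 and 96.8, 56.7 and 115, and 59.1 and 185 scaled FPKM. The edgeR change of IDH1 was 1.23 ± 0.28 (SE; Benjamini-Hochberg adjusted p = 0.50), with an adjusted p of 0.017 in DESeq2 and 0.024 in edgeR without the filter on low values, a setting that called 0.254% of genes higher and 0.183% lower. EPHX1, microsomal epoxide hydrolase, stood at 19.2 and 118, 7.47 and 15.4, and 41.9 and 77.0. It was higher in each resistant line, with an edgeR change of 1.51 (Benjamini-Hochberg adjusted p = 0.50) that was 0.96 without the LnCaP pair. The adjusted p of EPHX1 was 0.040 in DESeq2 and 0.031 in edgeR without the filter (Benjamini-Hochberg). ABCC4, which encodes the exporter MRP4, stood at 16.9 and 5.67, 22.8 and 18.1, and 15.3 and 0.739. It was lower in each resistant line, as was ABCC1, and its edgeR change of -2.00 (Benjamini-Hochberg adjusted p = 0.51) became -0.94 without the LAPC4 pair and -1.15 without the block.

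Among other glutathione enzymes, 4 of 20 tested genes stood 2-fold or more above LnCaP in LnCaP-abl and 1 below, while the VCaP and LAPC4 pairs each had 0 above and 2 below, with medians of 0.47, 0.01 and -0.19. GSTT2, a glutathione transferase, stood at 5.16 scaled FPKM in LnCaP (53 counts) and 0.0804 in LnCaP-abl (1 count), a 64.1-fold lower level in LnCaP-abl. The fold of LnCaP-abl over LnCaP was 0.0156 with a counting interval of 0.000388 to 0.0907, and reads of GSTT2 may be shared with its near-identical copy GSTT2B. Of 14 other selenoproteins, 2 were at least 2-fold higher in the LnCaP pair and none was past 2-fold in the other pairs, with medians of 0.35, 0.15 and 0.02. The 2 were SELT, an endoplasmic reticulum selenoprotein (27.4 in LnCaP and 96.2 in LnCaP-abl), and SELM, of the same compartment (6.45 and 23.5). Genes for selenium handling and selenoprotein synthesis had medians of 0.08, 0.01 and 0.04 over 9 genes, with 1 past 2-fold, in the LnCaP pair. This was SELENBP1, a selenium-binding protein without selenocysteine, at 64.3 and 836 in the LnCaP lines, 16.7 and 30.2 in the VCaP lines and 42.1 and 62.9 in the LAPC4 lines. SELENBP1 was higher in each resistant line, with an edgeR change of 1.64 (Benjamini-Hochberg adjusted p = 0.51) that became 0.71 without the LnCaP pair and 2.90 without the block. Its adjusted p was 0.13 in DESeq2 and 0.049 in edgeR without the filter on low values (Benjamini-Hochberg).

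**Figure D4:**
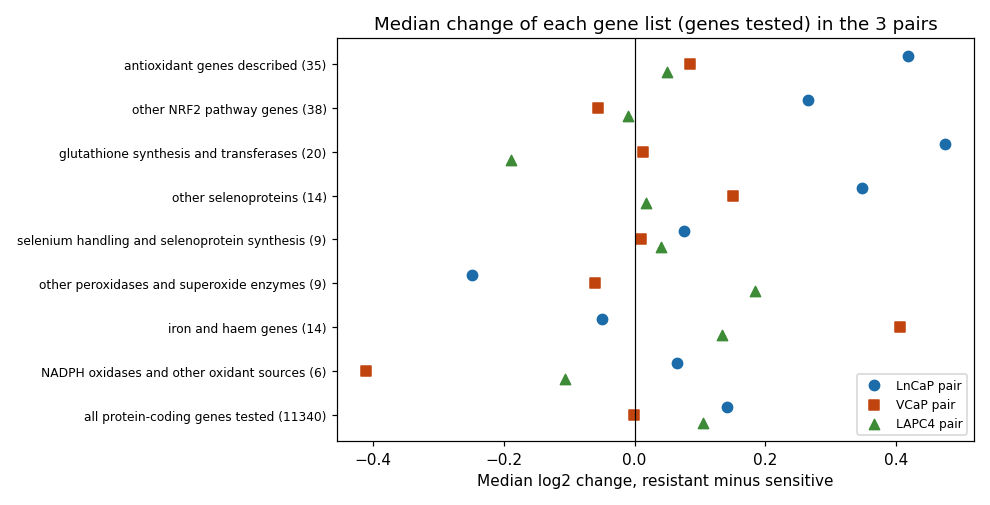
Median log2 change, resistant minus sensitive, of the antioxidant genes described, 7 lists of related genes and all protein-coding genes tested, with the number of genes tested in brackets. Circles are the LnCaP pair, squares the VCaP pair and triangles the LAPC4 pair. In the LnCaP pair the antioxidant genes (0.42) and the glutathione list (0.47) lie right of the protein-coding median (0.14). Most lists lie near 0 in the VCaP and LAPC4 pairs. In the VCaP pair the iron and haem list lies at 0.41 and the list of oxidant sources, with 6 genes tested, at -0.41.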

How the data were processed

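RNA was extracted with a column kit and sequenced with a SOLiD total RNA kit, per the labels' protocols. The deposited tables give a count and an FPKM per gene entry; HTSeq and hg18 are named in the submitters' processing notes, while for the aligner, annotation, strand setting and multi-mapping reads nothing is stated in the sources read. The deposited FPKM values were rebuilt within 1% from counts and gene lengths. From there, 51698 entries were summed to 47032 symbols, and FPKM was divided by a median-ratio library factor (0.871 to 1.08) over 12927 genes at 1 or more in every library. Counts were tested in edgeR 4.0.16 (R 4.3.3) with TMM factors, the parental line as a block and Benjamini-Hochberg adjustment over 18004 genes whose mean reached 1 scaled FPKM. DESeq2 1.42.0, limma 3.58.1, other scalings, pseudocounts (0.25 and 5 in place of 1) and filters were alternatives. The line names give the pairing: deviations from the group means correlated by 0.44, 0.69 and 0.56 within the LnCaP, VCaP and LAPC4 pairs, and by -0.45 to -0.06 across pairs. In simulated counts of 18004 genes for this comparison, the test recovered 81% of 100 genes changed 4-fold and 100% of 100 changed 16-fold. All of these had a mean count of at least 50, and the test made 6 false calls. The simulation gave every gene the same spread between libraries (dispersion 0.122) and a changed gene the same fold in every pair. Recovery at lower counts, or of changes that differ between pairs, was not tested. The 81% therefore does not carry over to the genes measured here. Each group has 3 libraries of different lines. The p-values therefore set the difference between states against its variation over the 3 pairs, which the tests moderate with that of other genes. They do not cover variation between cultures of the same line.

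The members and lists were chosen with earlier results of these data known. Described in full were members with a 2-fold difference in a pair or an unadjusted p under 0.05, the 5 most abundant, the selenoproteins, NFE2L2 and KEAP1; from other lists, genes past 2-fold in the same direction in 2 pairs and the largest differences of a list in a pair. ABCC4 and the other list genes with an edgeR value follow that rule. Coordinates of genes are those of the deposited tables, in hg18, counted from 1. Motif positions are from RefSeq on GRCh38.p14. Counting intervals are 95% exact intervals, and they treat reads as independent molecules.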

Additional observations from a re-analysis of the deposited data

Results flagged for a closer look

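In each of these genes, 2 pairs moved past 2-fold in opposite directions at the settings used for the values above. With 1 library per line the difference between pairs was not tested. FTH1, the ferritin heavy chain, had log2 changes of 1.16 in the LnCaP pair and -1.66 in the LAPC4 pair, a difference of 2.82. Summed with its pseudogene entries, FTH1 had changes of 0.71 and -1.29 in these pairs. With scaling on protein-coding genes its change was 0.98 in the LnCaP pair, so that pair was under 2-fold either way. GPX2, a selenoprotein peroxidase, differed by 2.30 between the LnCaP pair (1.13) and the VCaP pair (-1.17), on 3 and 27 counts in the former and 26 and 6 in the latter. The LnCaP pair's fold for GPX2 was 7.44 with a counting interval of 2.29 to 38.3. GSTA1, a glutathione transferase, differed by 2.65 between the LnCaP pair (1.56) and the VCaP pair (-1.10). Its fold was 3.92 (interval 2.37 to 6.80) in the LnCaP pair, and 0.0474 (interval 0.00112 to 0.316) in the VCaP pair, on 13 and 1 counts, and its reads may be shared with related GSTA genes. NNT, which makes mitochondrial NADPH, differed by 4.08 between the LnCaP pair (2.46) and the LAPC4 pair (-1.61). It stood at 0.620 scaled FPKM in LnCaP and 7.94 in LnCaP-abl, and at 5.41 in LAPC4 and 1.10 in LAPC4-CR. STEAP3, an iron reductase of endosomes, differed by -2.60 between the LnCaP pair (-1.28) and the LAPC4 pair (1.33).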

How the results depend on the processing

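The edgeR test called 0 genes higher and 0 lower over the 3 pairs. DESeq2 called 98 and 87 and edgeR without the filter 114 and 82, and leaving out 1 pair in turn gave 0 to 31 higher and 1 to 21 lower. Without the replicate block, which pairs each resistant line with its parent, edgeR again called 0 and 0. Members called lower numbered 1 in DESeq2 (ABCC1) and 0 in edgeR. With a pseudocount of 5 the members past 2-fold were 1 lower in the LnCaP pair, 0 higher in the VCaP pair and 3 lower in the LAPC4 pair; 2 were lower in the VCaP pair with a pseudocount of 0.25 or with no filter, and 0 with a filter at 5. Scaling on protein-coding genes, added after the data were seen, left 1 higher in the LAPC4 pair and turned that pair's median to -0.10; it gave 5.75% of coding genes higher and 4.86% lower in the LnCaP pair and 5.35% and 5.28% in the LAPC4 pair. The members' median over the pairs, 0.11, was -0.027 to 0.22 with 1 pair left out, and below 0 without the LnCaP pair. The edgeR change of KEAP1 was 0.017 without the replicate block, 0.046 with no filter and -0.28 to 0.13 with 1 pair left out, positive without the VCaP pair. Of 124 recomputed member differences of at least 2-fold, 99 stayed within counting error of the value given, 25 moved and 0 turned. The 99 include the filter settings, which leave a gene's own value as it was and so stayed by construction. A change of pseudocount cannot turn a sign, so only the library scalings could have turned one. TXN and PRDX1 had no entries named as their pseudogenes. With 1 library per line, medium and state cannot be told apart, and genes of few counts such as GPX2 and ME1 are the least precise.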

Other observations

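Of 18 genes for NADPH oxidases and other oxidant sources, 6 passed the filter, beside 18004 of all 47032 symbols. The oxidases NOX1, NOX3, NOX4, NOX5, DUOX1 and DUOX2 were each at most 0.63 scaled FPKM in every library. MAOA, a mitochondrial amine oxidase that releases hydrogen peroxide, depended on the parental line. It stood at 101 and 186 in the LnCaP lines, 36.6 and 20.5 in the VCaP lines and 0.785 and 0.350 in the LAPC4 lines. SAT1, which feeds polyamine oxidation, stood at 4.24 in LAPC4 and 1.02 in LAPC4-CR, the 2-fold difference of the list.

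Of 14 iron and haem genes tested, 1 was past 2-fold higher and 1 lower in LnCaP-abl than in LnCaP, none in the VCaP pair, and 2 were higher in LAPC4-CR than in LAPC4, with medians of -0.05, 0.41 and 0.13. The shares of all genes past 2-fold are those given with the other NRF2 pathway genes. STEAP2, a metalloreductase, went from 39.0 to 135 in the LAPC4 pair. ABCG2, a drug exporter and NRF2 target, went from 0.508 to 4.86 in that pair.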
